A study of Mus musculus with 6 samples.

Results

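Chemokines, cytokines and the genes of the NF-kappaB pathway were followed in B/CMBA.Ov cells, a line of mouse ovary (BALB/c strain), after a miR-15a-3p mimic had been brought into them. The set holds 48 genes of the 21124 named genes measured: 9 CC chemokines, 10 CXC and CX3C chemokines, 6 genes of the IL-1 family, 8 other cytokines, 4 genes of adhesion and the acute phase, 4 NF-kappaB subunits and 7 inhibitors and feedback regulators of NF-kappaB. The genes were picked by symbol, and the transcript clusters of the array were given symbols through the exon-level probe sets that lie between a cluster's ID and the next. All 48 were found, 47 with 1 cluster and Ccl25 with 2, of which the brighter was used.

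One arm, of 3 arrays, received the miR-15a-3p mimic, a synthetic double-stranded copy of the microRNA. The other arm, also of 3 arrays, received a negative control mimic. Cells of both arms were therefore transfected with a small RNA, at 20 nM and with a lipid reagent, and RNA was taken 48 h later. The arrays report log2 signals over the length of each transcript. Whether each array came from its own culture is not stated in the labels, so p-values speak only to differences among these 6 arrays, whose spread may be technical. A lower signal in a whole culture can come from fewer cells that make a transcript or from less RNA per cell, and these cannot be told apart here.

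NF-kappaB is a family of dimeric transcription factors held in the cytoplasm by IkappaB proteins. Signals from Toll-like receptors, the IL-1 receptor and the TNF receptor activate the IKK kinase complex, which marks IkappaB for destruction and frees the dimers to switch on chemokine, cytokine and adhesion genes. The same dimers switch on their own brakes, among them IkappaB-alpha (Nfkbia) and the ubiquitin-editing enzyme A20 (Tnfaip3). In the ovary, chemokines and cytokines of stromal and surface cells draw in leukocytes around ovulation.

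The microRNA that was supplied is shown first, with its seed, the stretch that pairs with target transcripts, in capitals (bases 2 to 8; RefSeq, GRCm38.p6, minus strand, chr14:61632038-61632059). The mature sequence from the other arm of the same precursor is set beside it because the seeds of the 2 arms differ.
mmu-miR-15a-3p: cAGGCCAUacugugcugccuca
mmu-miR-15a-5p: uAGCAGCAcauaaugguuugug
Of the 1738 mature mouse microRNAs in the RefSeq table, miR-15a-3p alone carried its seed, while 11 carried the seed of miR-15a-5p.

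The promoter windows of members that changed are shown next, because several of them hold the NF-kappaB consensus motif, a pattern of 10 letters that was searched on both strands. A window runs from 250 bases before to 50 bases after a gene's start, as RefSeq gives it on GRCm38.p6. A window was found for 35 of the 48 members. The motif was present in 12 of these 35 (34.3%), against 5.14% of all 27025 genes with a window. The members are known NF-kappaB genes in large part, so this share describes the choice of genes. Among members that rose with the mimic 2 of 5 windows held the motif (Nfkbia and Tnip1), among those that fell 4 of 6 (Ccl9, Cxcl10, Csf1 and Tnfaip3), and among those not called 6 of 24. Genes with the motif thus stood on both sides of the change. Below, capitals mark matches to the consensus, and in Cxcl10 also the only match to the interferon element GAAANNGAAA, which lies farthest upstream of the 3 capital stretches. That element was found in 2 of the 35 member windows (Cxcl10 and Cxcl14) and in 3.99% of all genes with a window. In Tnip1 the capitals cover 3 overlapping matches.
Nfkbia (chr12:55492598-55492897, minus strand): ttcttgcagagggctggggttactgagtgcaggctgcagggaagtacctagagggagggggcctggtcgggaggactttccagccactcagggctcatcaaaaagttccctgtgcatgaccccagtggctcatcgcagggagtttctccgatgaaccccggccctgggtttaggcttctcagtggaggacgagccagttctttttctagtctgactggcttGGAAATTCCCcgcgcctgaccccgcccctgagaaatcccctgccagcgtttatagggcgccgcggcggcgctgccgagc
Tnip1 (chr11:54962891-54963190, minus strand): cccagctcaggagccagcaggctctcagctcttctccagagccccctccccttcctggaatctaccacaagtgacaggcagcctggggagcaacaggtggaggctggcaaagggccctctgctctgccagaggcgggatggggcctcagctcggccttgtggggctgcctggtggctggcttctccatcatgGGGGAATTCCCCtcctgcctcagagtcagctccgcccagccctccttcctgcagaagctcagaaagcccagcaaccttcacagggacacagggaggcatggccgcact
Tnfaip3 (chr10:19015361-19015660, minus strand): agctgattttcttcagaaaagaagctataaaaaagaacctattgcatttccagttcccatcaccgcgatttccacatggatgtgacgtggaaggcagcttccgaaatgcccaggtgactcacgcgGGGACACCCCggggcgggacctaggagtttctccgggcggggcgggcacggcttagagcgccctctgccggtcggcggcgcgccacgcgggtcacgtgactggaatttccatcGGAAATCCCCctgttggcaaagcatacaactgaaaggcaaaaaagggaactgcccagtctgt
Cxcl10 (chr5:92348840-92349139, minus strand): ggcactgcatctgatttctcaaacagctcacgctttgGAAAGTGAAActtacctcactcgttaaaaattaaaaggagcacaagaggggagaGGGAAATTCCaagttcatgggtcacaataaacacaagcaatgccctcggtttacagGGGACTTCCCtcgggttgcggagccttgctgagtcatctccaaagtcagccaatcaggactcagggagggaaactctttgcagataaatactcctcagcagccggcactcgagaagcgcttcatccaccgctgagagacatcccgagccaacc
For Ccl9 and Csf1 only the 60 bases around the match are given.
Ccl9 (chr11:83578637-83578696, minus strand): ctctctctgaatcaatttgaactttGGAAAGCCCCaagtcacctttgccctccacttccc
Csf1 (chr3:107760589-107760648, minus strand): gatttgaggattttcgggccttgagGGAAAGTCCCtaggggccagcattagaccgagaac
Among these 6 windows the match nearest to a start was that of Tnfaip3, from 12 to 3 bases upstream, followed by that of Nfkbia, from 29 to 20 bases upstream. A match is a run of letters and says nothing about binding in these cells.

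The set moved in both directions with the miR-15a-3p mimic. At an adjusted p under 0.05 in a limma fit over all genes, 9 members rose and 7 fell. The 16 called members are 33.3% of the set, against 11.7% of all 21124 genes. Rises made up 6.09% and falls 5.63% of all genes. The median log2 fold change of the 48 was -0.010, against 0.006 over all genes, and the median size of the change was 0.144 against 0.089 over all genes. In 21 of the 48 (43.8%) the arrays of the groups did not overlap, against 29.6% of all genes. The members were chosen with earlier results of these data known, so none of these comparisons is a test of the set. Brighter transcripts were called more often in the whole table: 19.2% of the genes at or above the median signal of 7.27 and 4.22% of those below it. Of the 48 members 30 lay at or above that median, and all 16 calls were among them (53.3%). None of the 18 dimmer members was called by limma (0 of 18), and 2 of them had an unadjusted p under 0.05. The array gave no detection call, so a dim member could not be told from an unexpressed one.

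**Figure D1:**
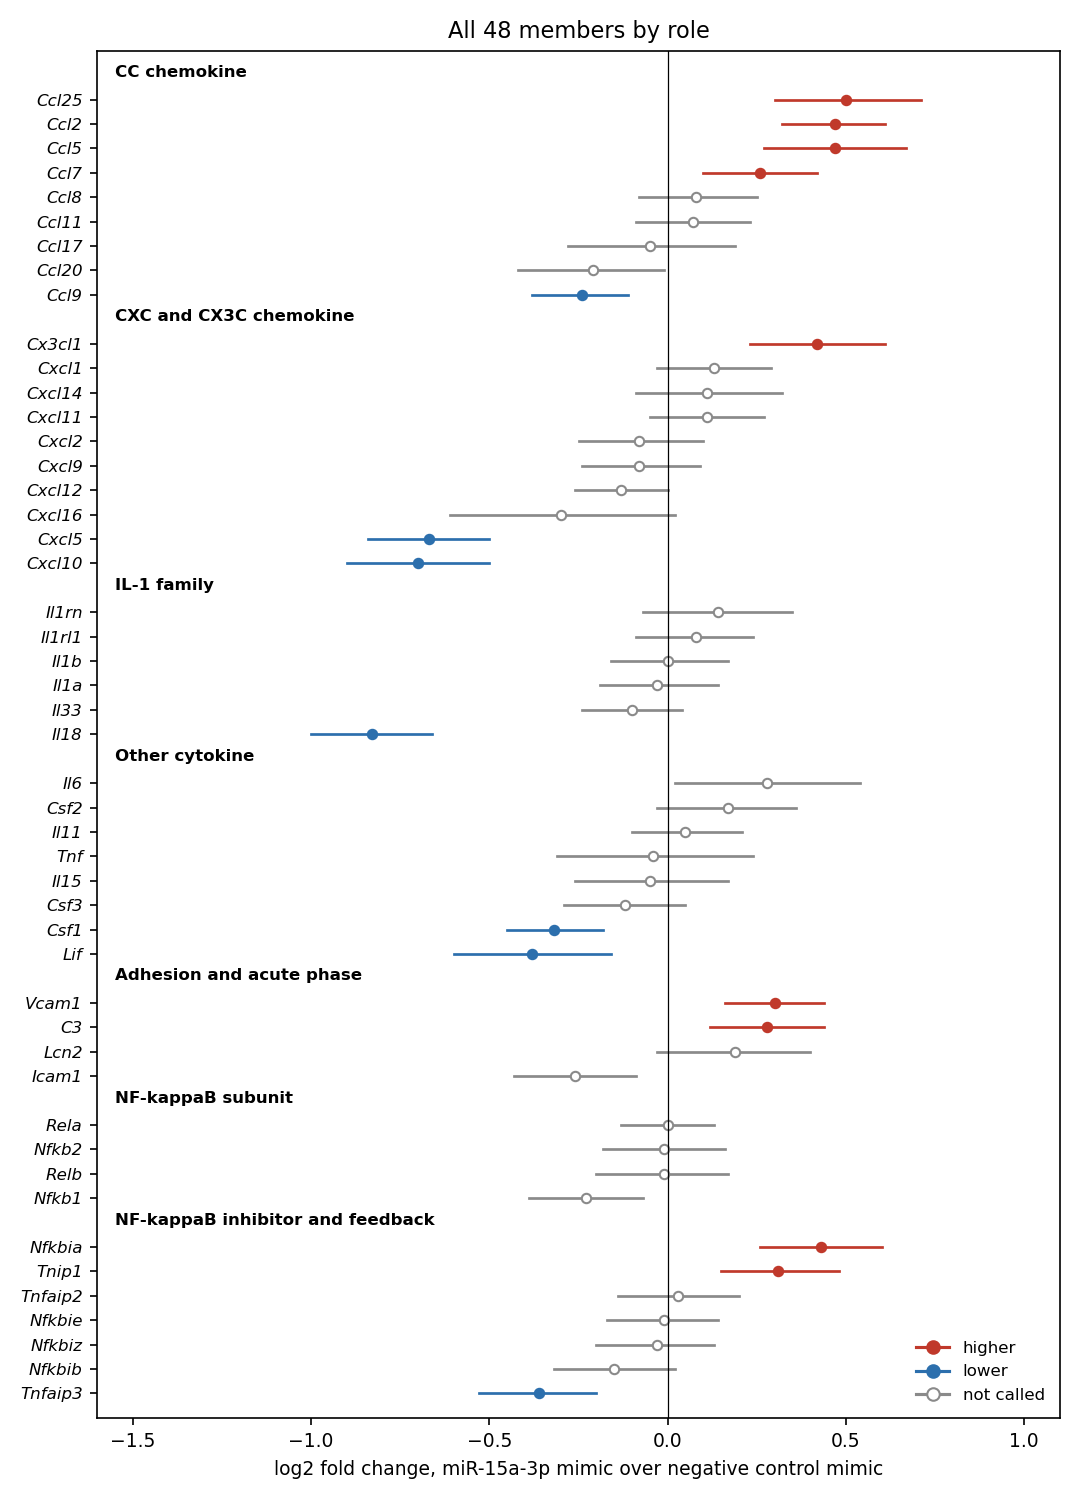
Log2 fold change, miR-15a-3p mimic over negative control mimic, of all 48 genes grouped by role, with the 95% confidence interval of the limma fit as a bar. The 9 red genes rose and the 7 blue genes fell at an adjusted p under 0.05, and the 32 open grey points were not called; the changes run from -0.83 (Il18) to 0.50 (Ccl25).

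Among the CC chemokines, small secreted proteins that steer monocytes and lymphocytes, 4 of 9 rose and 1 fell (55.6% called, against 11.7% of all genes). Ccl2, the main attractant of monocytes, had log2 values of 11.83, 11.71 and 11.69 in cells given the mimic, against 11.28, 11.25 and 11.30 in control cells. All mimic arrays lay above all control arrays, by at least 0.38. The log2 fold change was 0.47 ± 0.0647 (SE), or 1.38-fold (limma adjusted p = 0.0017, n = 3 arrays a group). A second readout was the authors' deposited table of exon-level probe sets, which rests on the same samples and seems to use 5 of the 6 arrays. There, 6 of 6 probe sets of Ccl2 in the authors' deposited table were above 1 in ratio and 5 of them had p under 0.05.

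Ccl7, which lies next to Ccl2 and attracts monocytes through some of the same receptors, read 9.62, 9.50 and 9.62 with the mimic and 9.43, 9.26 and 9.27 with the control. The groups were separated by 0.07, and the change of 0.26 ± 0.0719 was just past the threshold (limma adjusted p = 0.046). The call was lost without mimic replicate 1, 2 or 3 and without control replicate 2 or 3. The following members of this gene cluster, Ccl11 (eotaxin) and Ccl8, gave log2 fold changes of 0.07 and 0.08 and were not called (limma adjusted p = 0.61 and 0.58). Their means were 7.33 ± 0.114 and 5.06 ± 0.102 with the mimic and 7.26 ± 0.0249 and 4.98 ± 0.0743 under the control mimic (mean ± SD, n = 3). The rise was thus called for the first 2 of these members in the order Ccl2, Ccl7, Ccl11, Ccl8. Between Ccl11 and Ccl8 lies 1 measured gene outside the set. The difference between these genes' changes was not tested.

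Ccl5, also called RANTES, an attractant of T cells, read 7.78, 7.67 and 7.70 with the mimic, against 7.43, 7.08 and 7.23 with the control. The groups did not overlap, and control replicate 2 was the lowest of the 6 arrays. Its log2 fold change was 0.47 ± 0.0901 (limma adjusted p = 0.009). Ratios above 1 were found for 5 of 6 probe sets of Ccl5 in the authors' deposited table, 2 of them with p under 0.05. Ccl9, the next measured protein-coding gene on chromosome 11, went the other way: it read 9.72, 9.65 and 9.67 with the mimic and 9.90, 9.95 and 9.92 with the control. All mimic arrays were lower, with little spread in either group, and the change was -0.24 ± 0.0597 (limma adjusted p = 0.029). Without mimic replicate 2 or 3, or control replicate 2 or 3, the call of Ccl9 was lost. Of the 7 probe sets of Ccl9, 6 were lower at p under 0.05 in the authors' deposited table.

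Ccl25, a chemokine known for guiding T cells to the thymus and gut, showed the largest rise of the 48, 1.42-fold. Its log2 values were 8.87, 8.71 and 8.61 with the mimic and 8.10, 8.37 and 8.21 with the control. Mimic replicate 1 was the highest array and control replicate 1 the lowest, and the groups did not overlap. The log2 fold change was 0.50 ± 0.0911 (limma adjusted p = 0.0067). The dimmer transcript cluster under the same symbol was higher as well, with a mean of 7.96 with the mimic and 7.52 with the control, a difference of 0.44. The brighter cluster's 9 probe sets all had ratios above 1 in the authors' deposited table, although 1 alone had p under 0.05. The remaining CC chemokines, Ccl17 and Ccl20, had log2 fold changes of -0.05 and -0.21 and were not called (limma adjusted p = 0.85 and 0.18).

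**Figure D2:**
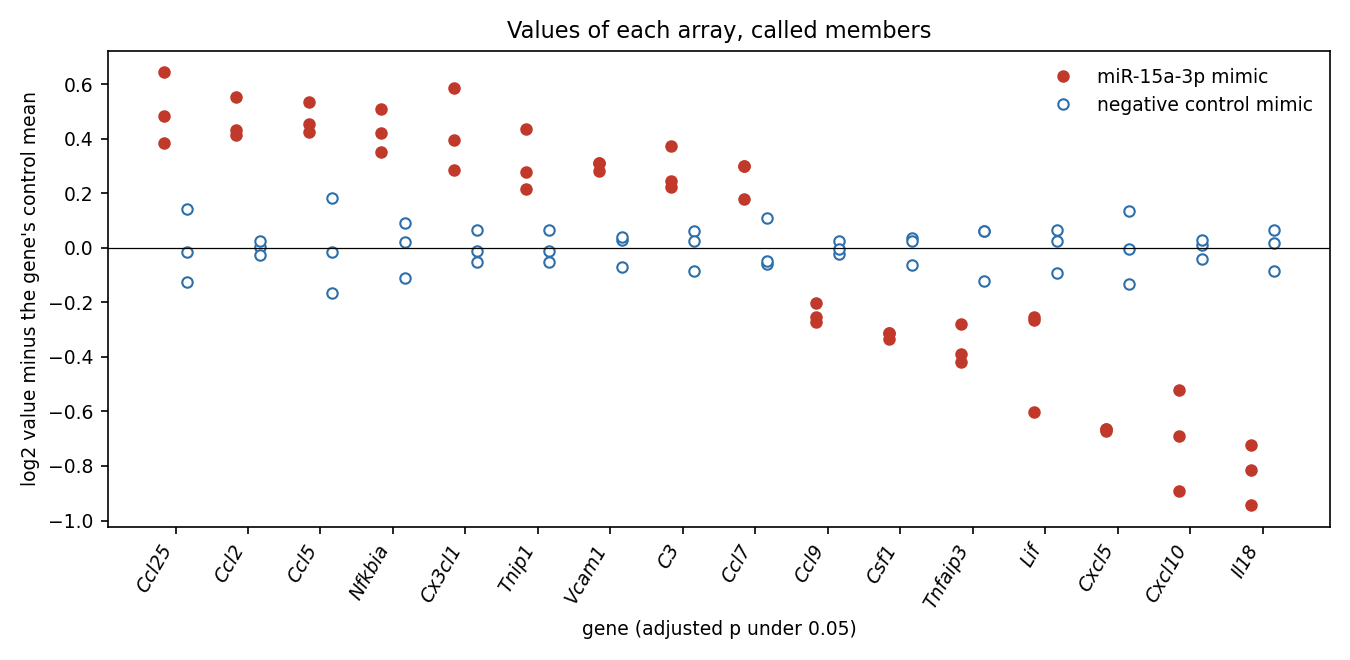
Log2 value of each array minus the mean of the 3 control arrays of that gene (vertical axis), for the 16 genes with an adjusted p under 0.05 (horizontal axis, by fold change). Filled red points are the 3 miR-15a-3p mimic arrays and open blue points the 3 negative control arrays. In all 16 genes the groups do not overlap, with the narrowest gap, 0.07, in Ccl7 and the widest, 0.64, in Il18. The genes were picked by adjusted p on these same arrays, so the lack of overlap is not separate support. Over all genes the groups do not overlap in 29.6%.

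Of the 10 CXC and CX3C chemokines 2 fell and 1 rose (30% called, against 11.7% of all genes). Cxcl5, an attractant of neutrophils, read 7.56, 7.57 and 7.57 with the mimic, against 8.10, 8.37 and 8.23 with the control. The mimic arrays were nearly identical and the control arrays more spread, and the gap between the groups was 0.53. The log2 fold change was -0.67 ± 0.0758, a ratio of 0.629 (limma adjusted p = 0.00057). Cxcl1 and Cxcl2, neutrophil attractants of the same gene cluster, were not called. They had log2 fold changes of 0.13 (95% interval -0.03 to 0.29) and -0.08 (-0.25 to 0.10), with limma adjusted p = 0.31 and 0.63.

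Cxcl10, an interferon-induced attractant of activated T cells, read 8.87, 8.50 and 8.70 with the mimic and 9.40, 9.35 and 9.42 with the control. The control arrays lay close together, the mimic arrays spread over a wider range below them, and the gap was 0.48. The log2 fold change was -0.70 ± 0.0899, a ratio of 0.615 (limma adjusted p = 0.0011). Its 4 probe sets were all lower at p under 0.05 in the authors' deposited table. Its neighbours Cxcl9 and Cxcl11, which act on the same receptor, read 6.45 ± 0.0477 and 6.28 ± 0.0972 with the mimic and 6.52 ± 0.112 and 6.18 ± 0.0552 under the control mimic (mean ± SD, n = 3). Neither was called (limma adjusted p = 0.6 and 0.42), and both lay below the median signal of all genes. Cxcl11 is annotated as a pseudogene in the RefSeq table used here, which describes the C57BL/6J strain.

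Cx3cl1, or fractalkine, which is made as a membrane-bound adhesion protein and shed as a chemokine, read 9.09, 8.79 and 8.90 with the mimic, against 8.49, 8.45 and 8.57 with the control. Each mimic array was above each control array, and mimic replicate 1 was the highest. Its change was 0.42 ± 0.0839 (limma adjusted p = 0.011), while the adjacent gene Ccl17, given above, was not called. Of 5 probe sets for Cx3cl1, 4 had ratios above 1 in the authors' deposited table, but only 1 had p under 0.05. Cxcl12, the ligand of Cxcr4 made by stromal cells, read 11.41, 11.43 and 11.42 with the mimic and 11.56, 11.53 and 11.57 with the control. Its groups did not overlap, but the difference was small (-0.13 ± 0.0581, limma adjusted p = 0.2). Cxcl12 was called only where the variance was allowed to follow the signal (limma with an intensity trend). In the authors' deposited table, however, 6 of its 7 probe sets had ratios below 1, 5 of them with p under 0.05. The median log2 ratio of these probe sets was -0.09. Cxcl14 and Cxcl16, a chemokine of epithelial tissues and a membrane-bound one, had log2 fold changes of 0.11 and -0.30 (limma adjusted p = 0.52 and 0.24).

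The cytokine with the largest change in the set was Il18, which fell. IL-18 is made as an inactive precursor, cut by caspase-1 and known for raising interferon-gamma in lymphocytes. The log2 values of Il18 were 9.09, 9.22 and 9.31 with the mimic, against 9.95, 10.10 and 10.05 with the control. The groups were 0.64 apart, the widest gap of the 16 called members. The log2 fold change was -0.83 ± 0.0764, a ratio of 0.563 (limma adjusted p = 0.00022). Each of the 6 probe sets of Il18 was lower at p under 0.05 in the authors' deposited table.

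The other genes of the IL-1 family were not called. With Il18 the called share was 1 of 6 (16.7%, against 11.7% of all genes), and 4 of the 6 lay below the median signal. Il33, an alarmin stored in the nucleus of stromal and barrier cells, read 11.46, 11.54 and 11.53 with the mimic and 11.57, 11.66 and 11.59 with the control. These arrays did not overlap, by a margin of 0.03, and the change of -0.10 had a 95% interval of -0.24 to 0.04 (limma adjusted p = 0.4). Il1rl1, the receptor of IL-33, had a log2 fold change of 0.08, Il1rn, the natural antagonist of IL-1, of 0.14, Il1a of -0.03 and Il1b of 0.00. Their limma adjusted p lay between 0.43 (Il1rn) and 0.98 (Il1b).

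Of the other 8 cytokines, 2 fell and none rose (limma, 0 of 8), and 3 had an unadjusted p under 0.05. The called share was 25%, against 11.7% of all genes. Csf1, the growth factor of macrophages, read 10.38, 10.36 and 10.38 with the mimic, against 10.73, 10.63 and 10.72 with the control. The mimic arrays were tightly grouped and 0.25 below the lowest control array. Its change was -0.32 ± 0.061 (limma adjusted p = 0.0089). The authors' deposited table gave ratios below 1 for each of the 14 probe sets of Csf1, 4 of them with p under 0.05. Without control replicate 3 the call of Csf1 was lost (adjusted p = 0.055).

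Lif, a cytokine of the IL-6 family that acts through gp130, read 9.37, 9.03 and 9.38 with the mimic and 9.54, 9.70 and 9.66 with the control. Mimic replicate 2 stood well below the other mimic arrays, and the groups did not overlap. The change was -0.38 ± 0.0982 (limma adjusted p = 0.036), a call lost without mimic replicate 1 or 2 and without control replicate 2 or 3. Il6, of the same family, read 6.05, 6.11 and 6.37 with the mimic and 5.75, 6.13 and 5.80 with the control, with overlap between the groups. Its log2 fold change of 0.28 ± 0.115 was not called (limma adjusted p = 0.17), except in the fit without control replicate 2. The log2 fold changes of Il11, Il15, Csf2, Csf3 and Tnf lay between -0.12 (Csf3) and 0.17 (Csf2), with limma adjusted p from 0.29 to 0.91. For Tnf the 95% interval was -0.31 to 0.24, with mimic replicate 3 the lowest of the 6 arrays.

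Vcam1 and C3 rose among the 4 genes of adhesion and the acute phase (50% called, against 11.7% of all genes). Vcam1, the endothelial and stromal ligand of integrin alpha-4, read 10.18, 10.15 and 10.18 with the mimic, against 9.80, 9.90 and 9.91 with the control. The mimic arrays lay close together and above every control array. Its change was 0.30 ± 0.0618 (limma adjusted p = 0.013), with adjusted p = 0.052 without mimic replicate 3. Icam1, the ligand of integrin LFA-1, was lower with the mimic but not called: it read 7.27, 7.44 and 7.23 with the mimic and 7.64, 7.51 and 7.57 with the control. These arrays did not overlap, by 0.07, but the change of -0.26 ± 0.0746 missed the threshold (limma adjusted p = 0.053). It passed with either filter on dim genes, after quantile normalization, with each array centred on its median and without mimic replicate 2.

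C3, the central component of complement, read 10.76, 10.61 and 10.63 with the mimic and 10.30, 10.45 and 10.41 with the control. The groups were separated by 0.16, and the change was 0.28 ± 0.071 (limma adjusted p = 0.032). Among the fits that left out 1 array, the call was kept only without control replicate 2, and was lost without any 1 of the other 5 arrays. Of 39 probe sets for C3, 38 had ratios above 1 in the authors' deposited table, 7 of them with p under 0.05. Lcn2, lipocalin-2, which withholds iron from bacteria, had a log2 fold change of 0.19 and was not called (limma adjusted p = 0.28).

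**Figure D3:**
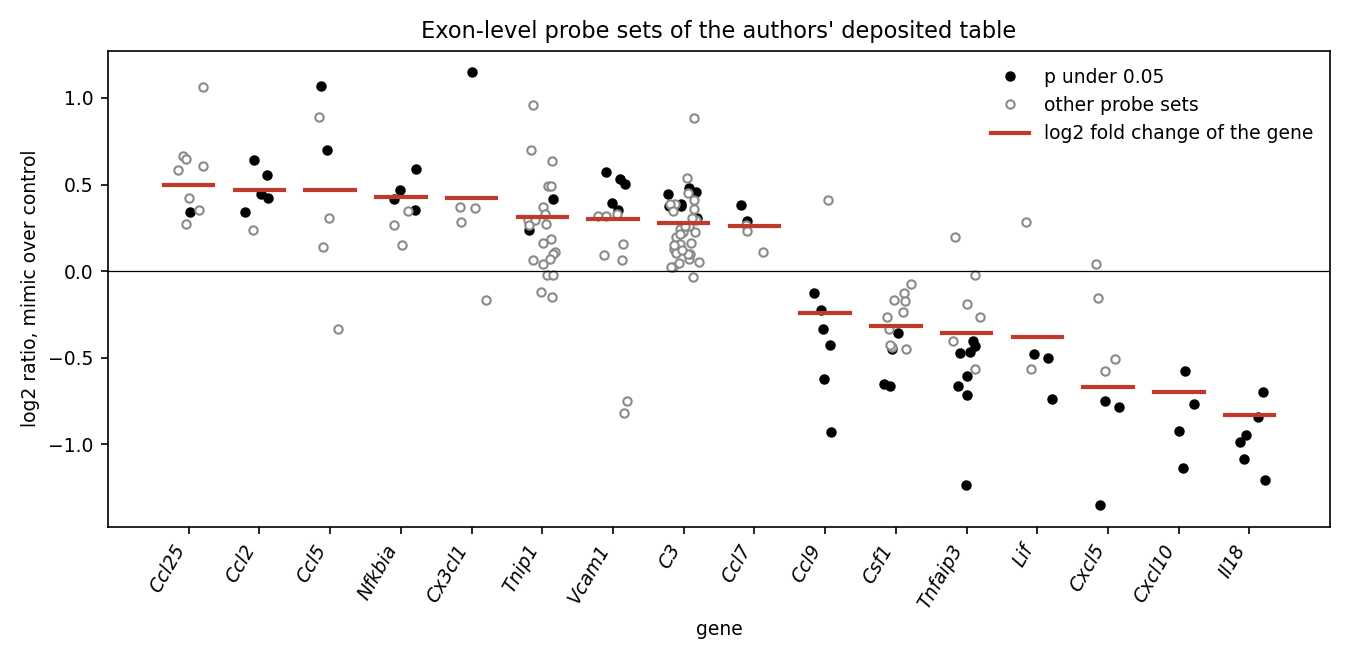
Log2 ratio, mimic over control, of each exon-level probe set in the authors' deposited table (vertical axis) for the 16 called genes (horizontal axis). Black points have p under 0.05 there, open points do not, and the red line is the log2 fold change of the gene from the 6 arrays; all 6 probe sets of Il18 and all 4 of Cxcl10 are black and below 0, while 7 of 39 of C3 and 2 of 24 of Tnip1 are black.

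None of the 4 NF-kappaB subunits was called by limma (0 of 4, against 11.7% of all genes), and 1 had an unadjusted p under 0.05. Rela, which encodes p65, the subunit that activates transcription in most dimers, read 9.60, 9.56 and 9.56 with the mimic, against 9.58, 9.57 and 9.58 with the control. The groups overlapped, and the 95% interval of its log2 fold change was -0.13 to 0.13. Nfkb1, which encodes p105, the precursor of the DNA-binding partner p50, read 9.52, 9.40 and 9.40 with the mimic and 9.56, 9.76 and 9.69 with the control. Its arrays did not overlap, by 0.04, and the change was -0.23 ± 0.0733 (limma adjusted p = 0.076). It was called with genes below the median left out, after quantile normalization, with an intensity trend and without control replicate 1. Nfkb2 and Relb, of the alternative pathway, had log2 fold changes of -0.01 and -0.01 (limma adjusted p = 0.97 and 0.95).

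The inhibitors and feedback regulators moved apart from each other: 2 of 7 rose and 1 fell. The called share was 42.9%, against 11.7% of all genes and 19.2% of those at or above the median signal, where all 7 lay. Nfkbia, the IkappaB-alpha gene and a direct target of the factor it restrains, read 8.98, 8.82 and 8.89 with the mimic, against 8.36, 8.56 and 8.49 with the control. All mimic arrays were higher, by at least 0.26. The log2 fold change was 0.43 ± 0.0753, or 1.35-fold (limma adjusted p = 0.0058). Ratios above 1 were found for 7 of 7 probe sets of Nfkbia in the authors' deposited table. Tnip1, whose protein ABIN1 binds ubiquitin chains and works together with A20, read 9.05, 8.83 and 8.89 with the mimic and 8.56, 8.68 and 8.60 with the control. Its groups did not overlap, and the change was 0.31 ± 0.0752 (limma adjusted p = 0.025). That call was lost without mimic replicate 1 or 3 and without control replicate 1 or 3.

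Tnfaip3, the A20 gene, fell. It read 9.59, 9.45 and 9.48 with the mimic and 9.75, 9.93 and 9.93 with the control. The highest mimic array stayed 0.16 below the lowest control array. Its change was -0.36 ± 0.0744, a ratio of 0.778 (limma adjusted p = 0.012). Of 14 probe sets for Tnfaip3, 8 were lower at p under 0.05 in the authors' deposited table. Without control replicate 3 its adjusted p was 0.067. Nfkbib and Nfkbie, the other IkappaB genes, Nfkbiz, a nuclear IkappaB protein that helps switch on Il6 and Lcn2, and Tnfaip2 had log2 fold changes from -0.15 (Nfkbib) to 0.03 (Tnfaip2). The limma adjusted p of these 4 genes lay between 0.28 and 0.94. Nfkbia, Tnip1 and Tnfaip3 each carry the NF-kappaB consensus in the windows printed above, and they did not share a direction.

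Of the 16 calls, 8 were kept in all 6 fits that left out 1 array and in all 7 other alternatives: Ccl2, Ccl5, Ccl25, Cx3cl1 and Nfkbia, which rose, and Cxcl5, Cxcl10 and Il18, which fell. The number of risen members was 5 without mimic replicate 3 and the number of fallen members 3 without control replicate 3. Without control replicate 3 the calls of Ccl7, Ccl9, Lif, Csf1, Tnfaip3, Tnip1 and C3 were lost together, while the count over all genes dropped to 1280.

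**Figure D4:**
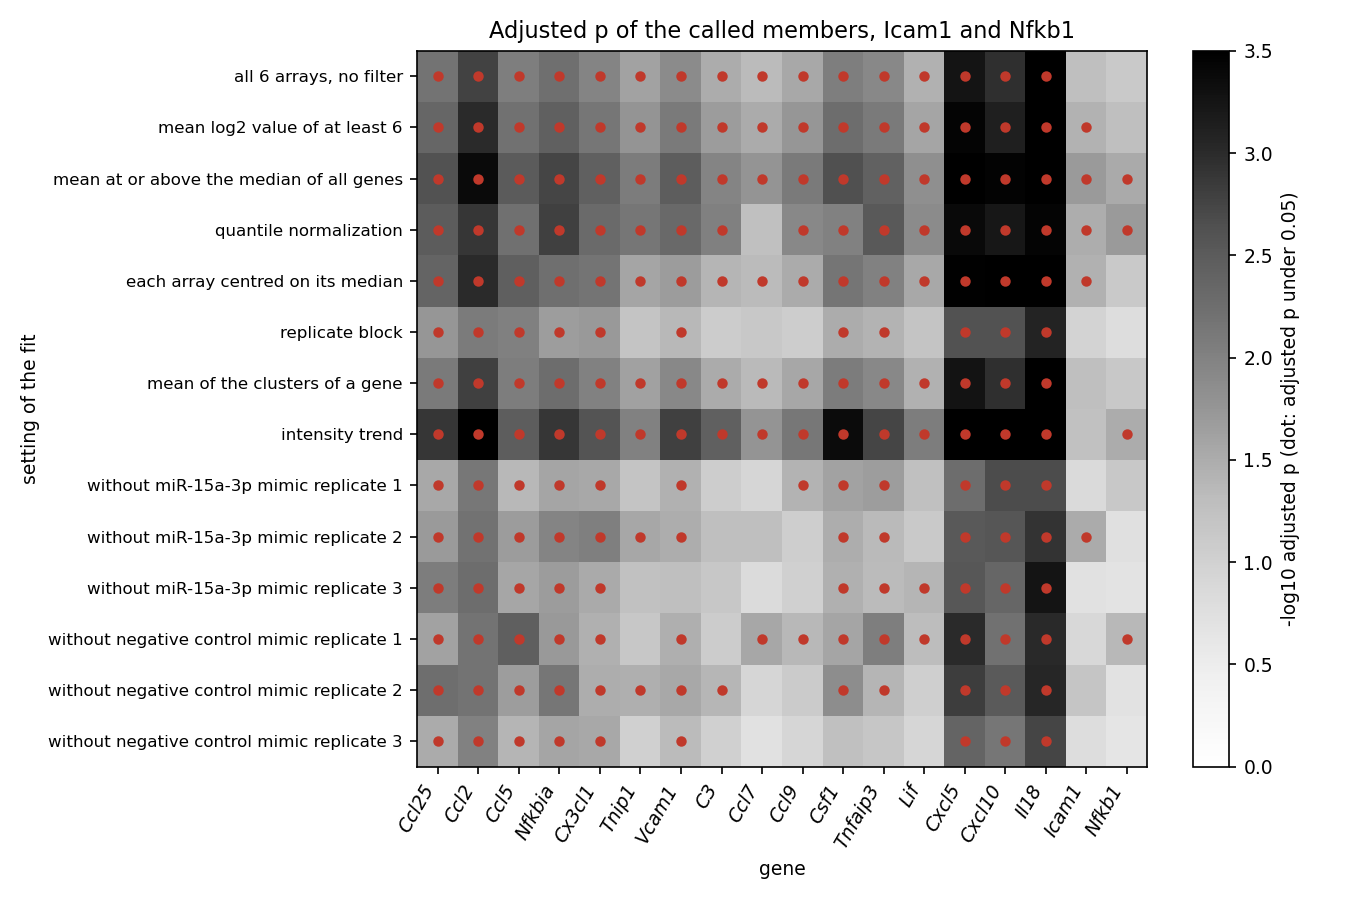
Adjusted p, shown as -log10 in grey, of the 16 called genes with Icam1 and Nfkb1 (columns) under each setting of the fit (lines). A red dot marks an adjusted p under 0.05; the 8 genes Ccl2, Ccl5, Ccl25, Cx3cl1, Nfkbia, Cxcl5, Cxcl10 and Il18 have a dot on every line, and the fit without control replicate 3 keeps 9 of the 16 calls.

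The genes around the set, in 6 lists that cover other chemokine ligands, chemokine receptors, cytokine receptors, NF-kappaB activation, cytokine mRNA decay and further NF-kappaB-induced genes, were read in the same fit. Of their 135 genes 14 rose and 10 fell, which is 17.8% against 11.7% of all genes, and the median log2 fold change was 0.007. These lists too were chosen with earlier results known, so their shares are no test. Without control replicate 3 the count was 11, and without mimic replicate 2 it was 15.

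Chemokine receptors, the molecules through which the ligands act, held 1 call among 22 and had a median log2 fold change of 0.008. The called share was 4.55%, against 11.7% of all genes and 4.22% of those below the median signal. The called gene was Ackr3, a scavenger receptor of Cxcl12, at 7.71 ± 0.167 with the mimic and 7.39 ± 0.0133 under the control mimic (mean ± SD, n = 3). Its limma adjusted p was 0.04, and with 1 array left out the call was kept only without mimic replicate 2. Of the 22 receptors 3 lay at or above the median signal. Among 16 further chemokine ligands Ccl28, a mucosal chemokine, rose. It read 7.56, 7.50 and 7.34 with the mimic, against 6.79, 6.86 and 6.85 with the control, with no overlap and a log2 fold change of 0.63 ± 0.0731 (limma adjusted p = 0.00065). Ppbp, a platelet chemokine, fell by 0.37 on the log2 scale (limma adjusted p = 0.039), a call lost without mimic replicate 2 or 3 or control replicate 3. Over the 16 ligands the median was 0.026, and 12.5% were called, against 11.7% of all genes.

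Of 26 cytokine receptors and their signalling genes 3 rose and 1 fell (15.4% called, against 11.7% of all genes), with a median of -0.102. Il2rg, the common gamma chain shared by the receptors of IL-2 and IL-15, averaged 7.73 ± 0.253 with the mimic and 6.65 ± 0.194 under the control mimic (mean ± SD, n = 3). All mimic arrays were higher, and the change of 1.08 ± 0.132 (limma adjusted p = 0.00086) was larger in size than that of any of the 48 members. Il2rg, Ccl28 and Ppbp were the 3 called genes of these lists whose mean lay below the median signal, where no detection call tells signal from background. Il15ra, the chain that presents IL-15, had a log2 fold change of 0.27 (limma adjusted p = 0.026). With 1 array left out its call was kept only without mimic replicate 3 or control replicate 1. Il6ra had 0.37 (limma adjusted p = 0.046), a call kept, with 1 array left out, only without mimic replicate 2. Osmr, the oncostatin M receptor, which pairs with gp130, fell: it read 10.72, 10.67 and 10.72 with the mimic and 10.95, 11.22 and 11.11 with the control. Its groups did not overlap, and the change was -0.39 ± 0.0773 (limma adjusted p = 0.011), lost without control replicate 3.

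In the list of NF-kappaB activation and its brakes, 5 of 42 genes rose and 4 fell, and the median was 0.040. The called share was 21.4%, against 11.7% of all genes. It was close to the 19.2% called among genes at or above the median signal, where 36 of the 42 lay. Tlr3, the sensor of double-stranded RNA, read 7.98, 7.64 and 7.91 with the mimic, against 8.32, 8.52 and 8.43 with the control, a log2 fold change of -0.58 ± 0.0945 (limma adjusted p = 0.004). Myd88, the adaptor of most Toll-like receptors and of the IL-1 receptor family, read 8.50, 8.35 and 8.32 with the mimic and 8.86, 8.68 and 8.75 with the control (-0.38 ± 0.0747; limma adjusted p = 0.011). Ripk1, the kinase of the TNF receptor complex, had -0.33 ± 0.0689 (limma adjusted p = 0.014), lost without control replicate 3. In none of these genes did the groups overlap.

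Tnip3, a relative of Tnip1, read 8.71, 8.80 and 8.87 with the mimic and 7.94, 8.33 and 8.25 with the control, a log2 fold change of 0.62 ± 0.0997 (limma adjusted p = 0.0037). Chuk, which encodes IKK-alpha, read 9.38, 9.42 and 9.45 with the mimic and 8.88, 9.13 and 8.95 with the control (0.43 ± 0.0757; limma adjusted p = 0.0061). Tab3, a ubiquitin-binding partner of the kinase TAK1, had 0.45 ± 0.0991 (limma adjusted p = 0.017), lost without mimic replicate 2. The mimic arrays lay above the control arrays in each of these genes. The list's remaining calls were in both directions. Tnip2, another A20-binding protein, had a log2 fold change of 0.31 and Tlr2, a receptor of bacterial lipoproteins, of 0.29 (limma adjusted p = 0.022 and 0.025), while Tlr1, which pairs with Tlr2, had -0.31 (limma adjusted p = 0.03). The call of Tnip2 was lost without mimic replicate 1 or control replicate 1 or 3, that of Tlr2 without any array other than mimic replicate 1, and that of Tlr1 without mimic replicate 1 or 2 or control replicate 2 or 3.

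Of 9 regulators of cytokine mRNA decay, Rc3h2 (roquin-2) rose and Khsrp, which binds AU-rich elements, fell, with log2 fold changes of 0.30 and -0.27 (limma adjusted p = 0.033 and 0.038) and a list median of 0.070. With 1 array left out the call of Rc3h2 was kept only without mimic replicate 1 or control replicate 2, and it missed the threshold with each array centred on its median (adjusted p = 0.051). The call of Khsrp was kept, with 1 array left out, only without mimic replicate 1. Of the 9 regulators 22.2% were called, against 11.7% of all genes, and 8 lay at or above the median signal, where 19.2% of genes were called. Among 20 further NF-kappaB-induced genes 3 rose and 3 fell (30% called, against 11.7% of all genes), with a median of -0.041. Ifngr2, a chain of the interferon-gamma receptor, had a log2 fold change of 0.46, Hp, haptoglobin, of 0.53, and Irf1, a transcription factor of the interferon response, of 0.34. Falls were seen in Tnfsf9, the ligand of the receptor 4-1BB (-0.58), in Ptgs2, the inducible cyclooxygenase (-0.37), and in F3, tissue factor (-0.36). For these 6 genes limma's adjusted p was at most 0.034 (F3). Irf1 has 2 transcript clusters, and with their mean in place of the brighter its change was 0.17 (limma adjusted p = 0.16). With 1 array left out its call was kept only without control replicate 2, and that of F3 only without mimic replicate 3 or control replicate 1.

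**Figure D5:**
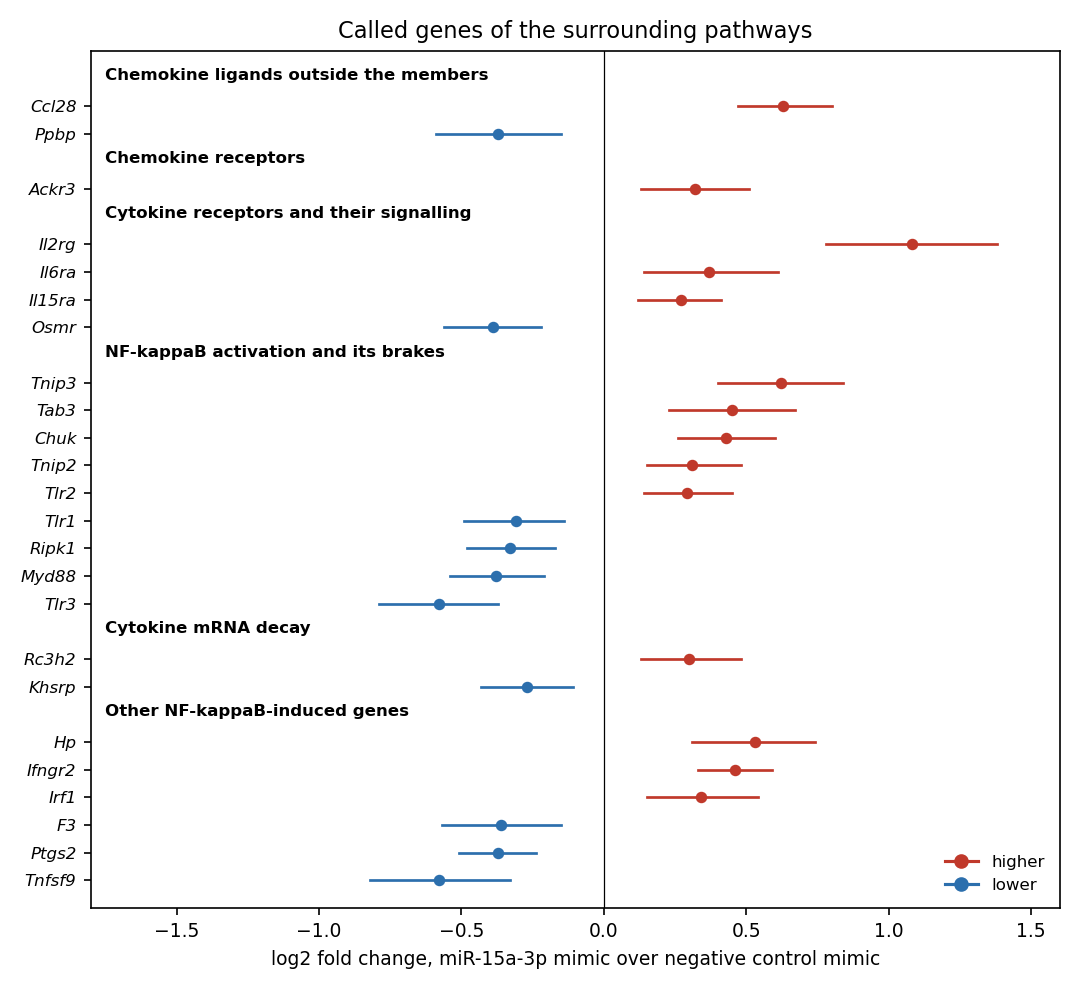
Log2 fold change, miR-15a-3p mimic over negative control mimic, with its 95% confidence interval, of the 24 genes with an adjusted p under 0.05 among 135 genes around the set, by list. Red genes rose (14) and blue genes fell (10); Il2rg, at 1.08, lies farthest from 0.

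Markers of cell types were read on the same arrays. Of 8 mesothelial and ovarian surface epithelium markers all 8 lay at or above the median signal, of 6 fibroblast markers 5, of 6 granulosa cell markers 1, of 12 macrophage and other leukocyte markers 2 (Cd68 and Cd14), and of 6 endothelial markers 0. The mean log2 value of the leukocyte list was 5.98 to 6.06 in mimic arrays and 5.95 to 6.08 in control arrays, and limma called none of its genes (0 of 12; 0 with an unadjusted p under 0.05). In the surface epithelium list 3 of 8 markers rose (Krt8, Krt18 and Krt19) and 4 fell (Krt7, Upk3b, Wt1 and Lrrn4), so they did not share a direction. The called share was 87.5%, against 11.7% of all genes and 19.2% of those at or above the median signal. The log2 fold changes ran from -1.40 to 0.69, and the list mean was 9.38 to 9.51 in mimic arrays against 9.63 to 9.66 in control arrays. Of the endothelial markers Tek fell (16.7% called, against 11.7% of all genes and 4.22% of those below the median signal). The endothelial list mean was 5.87 to 6.02 in mimic arrays and 5.97 to 6.08 in control arrays. In the fibroblast list Pdgfra rose and Dcn fell (33.3% called, against 11.7% of all genes and 19.2% of those at or above the median signal). Its means were 9.67 to 9.75 with the mimic and 9.75 to 9.80 with the control. The granulosa list had no call by limma (0 of 6, 1 with an unadjusted p under 0.05). Its means were 6.13 to 6.29 in mimic arrays and 6.19 to 6.41 in control arrays. The part of these cell types in the changes of the chemokine and cytokine genes was not tested.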

How the data were processed

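RNA of 6 samples was measured on whole-transcript arrays. The log2 values of 35556 transcript clusters were deposited by the authors already normalized, and their range, 2.73 to 13.91, is the basis for reading them as log2. RMA, MAS5, Expression Console and Partek appear in the submitters' processing notes, without versions or roles. The authors' deposited table gives a linear ratio and an unadjusted p-value for 241419 exon-level probe sets, per the file headers. Its contrast variance was 0.833 times the error variance, the value for 2 against 3 arrays, where 3 against 3 gives 0.667.

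Clusters were named from the probe sets in their ID interval, and symbols were updated through RefSeq's table for GRCm38.p6, which also gave the gene order. A single symbol was reached for 24115 clusters; 834 had several and 10607 had none. Over 17009 clusters with at least 4 probe sets, the log2 fold changes of both files correlated across genes with r = 0.936 in the own interval and 0.096 in the next. The cluster with the highest mean was kept, which left 21124 genes.

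All genes were fitted with limma 3.58.1 (lmFit, eBayes, R 4.3.3), two-sided, with Benjamini-Hochberg adjustment over all genes and no filter or block. Array medians were 6.94 to 7.01, and arrays correlated over genes with r of 0.996 to 0.998 within a group and 0.992 to 0.994 between groups. Their number limits the precision. On simulated data of 21124 genes, 68 of 100 genes changed by a log2 of 0.5 and 96 of 100 changed by 1 were recovered, with 4 false calls. The simulated noise was independent between genes and arrays, and few genes were changed, so these counts give no error rate for the real arrays. The members and the surrounding lists were chosen with earlier results of these data known. Every member is accounted for; of each surrounding list the called genes are named, at most the 6 with the smallest adjusted p; Tnip2, Tlr2 and Tlr1 were named beyond this rule, after their values were seen. Alternatives left out each array in turn or changed the filter, normalization, block, clusters or variance trend. A deposited subset of the probe-set table was not used.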

Additional observations from a re-analysis of the deposited data

How the results depend on the processing

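With 1 array left out, the number of risen members lay between 5 and 9, of fallen members between 3 and 8, of called genes in the surrounding lists between 11 and 17, and of all called genes between 1280 and 2057. The lowest values came without mimic replicate 3 for the rises and without control replicate 3 for the others. Deviations of same-numbered arrays from their group means correlated at -0.055, -0.284 and 0.038, and those of differently numbered arrays at -0.299 to 0.331. Such values cannot show whether the arrays were paired. In the fit with the replicate block 6 members rose and 5 fell, with 1727 genes called in all. Ccl7, Ccl9, Lif, Tnip1 and C3 were no longer called there. The other 6 alternatives (both filters on dim genes, quantile normalization, median centring, the mean of a gene's clusters, an intensity trend) gave 8 or 9 rises and 7 to 9 falls. Ccl7 alone lost its call there, after quantile normalization, and Icam1, Nfkb1 and Cxcl12 gained one in some of them. No called member changed sign in any fit. For the 16 called members, whose groups do not overlap, leaving out an array cannot change it. Of the members not called, 11 changed sign in at least 1 fit. The smallest called change was that of Ccl9, -0.24 in log2, and signals of the 18 members below the median of all genes could not be set apart from background.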

Other observations

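Some members that were not called had uneven readings. Cxcl16 read 6.57, 5.98 and 5.99 with the mimic and 6.36, 6.53 and 6.54 with the control. Mimic replicate 1 stood well above the other mimic arrays, at the level of the controls. Without it the fall was called, while with all arrays the adjusted p was 0.24 (limma). Ratios below 1 were found for 9 of 12 probe sets of Cxcl16 in the authors' deposited table. For Il6 all 6 of 6 probe sets in the authors' deposited table had ratios above 1, none with p under 0.05 (0 of 6), and the array values overlapped. For Nfkbib all 8 of 8 probe sets had ratios below 1 in that table, 2 of them with p under 0.05, and its log2 fold change was -0.15 (limma adjusted p = 0.28). For Nfkb1 the ratios were below 1 in 25 of 29 probe sets of the authors' deposited table, 3 of them with p under 0.05.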
